A study of Mus musculus with 4 samples.

Results

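F123-ESCs are a male mouse embryonic stem cell line from a cross between S129/Jae and Cast mice, so that sequence differences between the parental strains assign an RNAseq read to the S129 or the CAST allele. The genes described here were expressed almost only from the CAST allele. They were chosen by measured values: the S129 and CAST RPKM (reads scaled to gene length and to all reads of that allele in the library) were each averaged over the 4 libraries, the sum of both averages had to be at least 2 RPKM, and the S129 average had to make up at most 10% of that sum, which is called the S129 share below. Symbols starting with Mir, Snor or Rnu were left out. Of 24026 genes in the data, 11946 reached 2 RPKM and 43 genes met the whole rule. All 4 libraries, replicates 1 to 4, came from untreated F123-ESCs of genotype S129/CAST, which were grown on feeder fibroblasts, passaged without feeders at least 2 times and collected after about 48 h. The line stands for a single cross, and the labels name no other allele or agent. Because both alleles sit in the same nuclei and each library gives both, the data have no second group of samples, and the allele values of one library are measured in the same cells.

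In a hybrid cell the regulatory proteins are shared by both chromosomes, so an allele that is silent beside an active one differs in its own sequence or in its chromatin. Genomic imprinting is the best known source of such differences, in which a gene is active only on the copy inherited from one parent, and strain differences in promoters, enhancers, splice sites or gene copies are another. Allele values in such data are also shaped by which reads can be assigned, because only reads across a strain difference count and because a processed pseudogene or a duplicated gene shares sequence with its relatives.

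RNA was polyA-enriched. The read totals by which the RPKM was scaled, recovered from the RPKM values and summed over both alleles, were 34120404 (replicate 4) to 56627957 (replicate 1). The stem cell markers were present: all 8 genes of the list, among them Pou5f1, Nanog and Zfp42, lay between 59.1 and 14222 RPKM summed over alleles. Of 10 feeder fibroblast markers 7 were above 1 RPKM: Vim at 3406, Col1a2 at 332, Postn at 30.8, Col3a1 at 22.9, Col1a1 at 11.4, Thy1 at 3.15 and Dcn at 1.32 RPKM. S100a4 and Lum were under 1 RPKM and Twist1 was at 0, and the summed level of the list was 3466 to 4107 RPKM. The 5 primitive endoderm markers summed to 11.4 to 13.2 RPKM. Since these are bulk libraries, few cells with much RNA of a gene and many cells with little cannot be told apart, and the part of feeder cells in the levels below was not tested. On the X chromosome, 387 of 388 genes had an S129 share of at least 90%, and the male X comes from the mother, so the CAST alleles described here are the paternal ones. With 1 cross in 1 direction, paternal origin and CAST strain cannot be told apart.

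The 43 genes made up 0.37% of the 11616 genes that could meet the rule. Their CAST level ranged from 2.12 to 687 RPKM with a median of 6.94 RPKM, and 18 genes exceeded 10 RPKM. Their S129 level ranged from 0.0103 to 64.8 RPKM with a median of 0.407 RPKM. The CAST mean was 9.11 to 943 times the S129 mean, with a median of 19.6. In all 43 genes the lowest CAST value of any library lay above the highest S129 value of any library, which also held for 24.1% of expressed autosomal genes. No gene was listed at 0 on S129 in all 4 libraries, although 9 were at 0 in at least 1 library. These values restate the rule and carry no test. Ordered by what the proteins do, a grouping made after the values were seen, 8 encode intracellular proteins, 2 belong to the cytoskeleton, 9 encode secreted or metabolic proteins, 8 are immune genes, 6 act at membranes or in neurons, and 10 are pseudogenes or predicted genes.

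**Figure D1:**
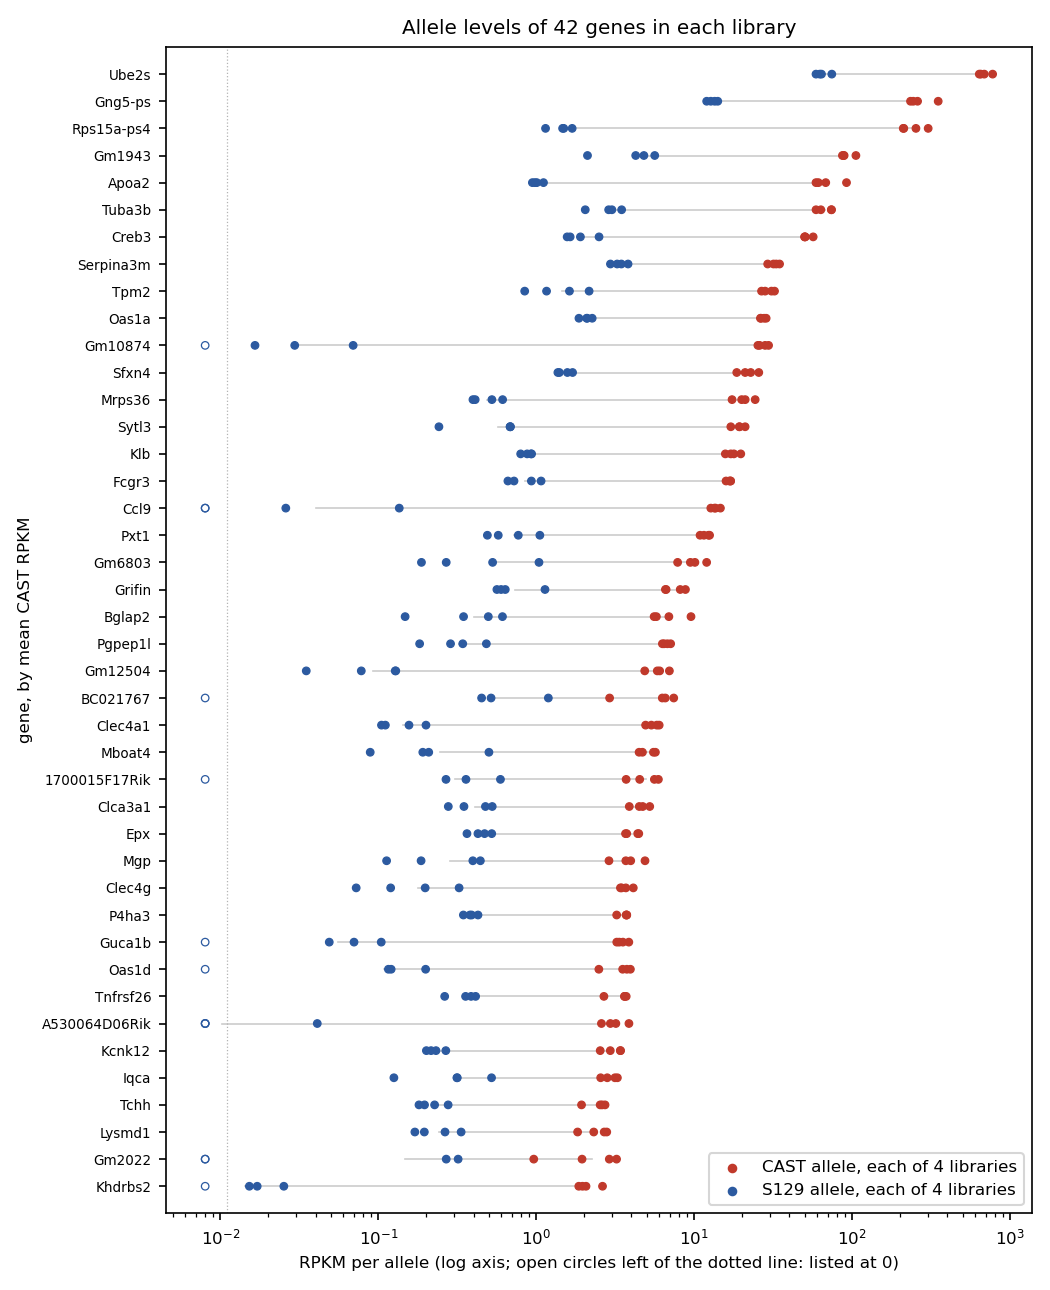
Allele level in RPKM on a log axis for 42 of the 43 genes, ordered by mean CAST RPKM, with 1 point per library for CAST (red) and S129 (blue); grey lines join the allele means, and open circles mark libraries listed at 0. CAST and S129 points of a gene are separate in all 42 genes drawn, from Ube2s at a mean CAST level of 687 RPKM to Khdrbs2 at 2.12 RPKM.

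Among the intracellular proteins, Ube2s (ENSMUSG00000060860, chr7:4794546-4812590, minus strand, mm10) was by far the highest of the whole set. Ube2s encodes the ubiquitin-conjugating enzyme that extends ubiquitin chains for the anaphase-promoting complex. Its CAST allele stood at 651, 685, 637 and 774 RPKM in replicates 1 to 4, and its S129 allele at 62.2, 63.8, 58.9 and 74.2 RPKM. The mean CAST level was 687 ± 61.4 RPKM (SD, n = 4), 10.6 times the S129 mean, and the log2 ratio of CAST to S129 was 3.40 ± 0.03 (SD, n = 4; with 0.1 RPKM added to each value here and below). The S129 share was nearly the same in the 4 libraries, at 8.72, 8.53, 8.47 and 8.75%. Ube2s was thus the member with the most S129 RNA, and it rested on 6944 S129 and 70916 CAST reads. The 183 exon bases it shares with Rpl28 on the opposite strand are 3.56% of its exons, and Rpl28, a ribosomal protein gene, had an S129 share of 56.1%. Whether the counting used strand is not given in the sources used here, so reads of the shared bases cannot be told apart.

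Creb3, a transcription factor held in the membrane of the endoplasmic reticulum until it is cleaved, had 50.4, 56.5, 49.9 and 50.0 RPKM on CAST and 2.49, 1.90, 1.64 and 1.57 RPKM on S129. Its log2 ratio was 4.72 ± 0.29, and the allele groups were far apart in each library. Sfxn4, a sideroflexin of the inner mitochondrial membrane, had 22.8, 20.98, 18.6 and 25.6 RPKM on CAST against 1.40, 1.70, 1.57 and 1.37 RPKM on S129. Mrps36, a small mitochondrial protein first named as a ribosomal subunit, had 24.3, 19.9, 17.3 and 20.99 RPKM on CAST against 0.397, 0.611, 0.523 and 0.410 RPKM on S129, a share of 2.30%. In each of these genes the lowest CAST library was more than 10 times the highest S129 library, and the remaining genes of this group were lower. Pxt1, a peroxisomal protein known from testis, averaged 11.8 ± 0.747 RPKM on CAST and 0.721 ± 0.250 RPKM on S129 (SD, n = 4). Grifin, a galectin relative of the lens, averaged 7.53 ± 1.11 and 0.732 ± 0.269 RPKM, Pgpep1l 6.64 ± 0.356 and 0.323 ± 0.125 RPKM, and Lysmd1 2.40 ± 0.437 and 0.241 ± 0.0737 RPKM. Over the 8 genes, the S129 share ranged from 2.30 to 9.11% with a median of 6.09%.

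The cytoskeletal members were Tuba3b and Tpm2. Tuba3b, an alpha-tubulin, had 63.2, 73.9, 73.7 and 58.9 RPKM on CAST and 3.47, 3.01, 2.87 and 2.04 RPKM on S129. Tpm2, the beta-tropomyosin that lies along actin filaments, had 28.1, 32.2, 30.8 and 26.6 RPKM on CAST and 1.62, 1.16, 0.844 and 2.16 RPKM on S129. Their log2 ratios were 4.54 ± 0.27 and 4.33 ± 0.66, the S129 values of Tpm2 varying more between libraries than its CAST values.

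The 9 members of the next group encode secreted or metabolic proteins that are better known from liver, bone, gut or skin. Apoa2 (ENSMUSG00000005681, chr1:171225054-171226379, plus strand), an apolipoprotein of high-density lipoprotein made by the liver, led this group with 67.9, 61.0, 58.9 and 91.9 RPKM on CAST. Its S129 allele gave 1.01, 0.978, 0.944 and 1.11 RPKM, a share of 1.42% and a log2 ratio of 5.96 ± 0.20. The CAST allele was highest in replicate 4, while the S129 allele stayed within 0.944 and 1.11 RPKM. Serpina3m, a serine protease inhibitor, had 34.6, 33.0, 31.7 and 29.1 RPKM on CAST and 3.25, 3.45, 3.81 and 2.94 RPKM on S129. Klb, the co-receptor through which endocrine fibroblast growth factors reach their receptors, had 17.02, 19.7, 17.8 and 15.7 RPKM on CAST and 0.933, 0.924, 0.874 and 0.795 RPKM on S129. The S129 share of Klb varied little, with 5.20, 4.49, 4.68 and 4.82%. Bglap2, one of the osteocalcin genes of bone, averaged 6.94 ± 1.83 RPKM on CAST and 0.3999 ± 0.20 RPKM on S129 (SD, n = 4). Mgp, a matrix protein that holds back calcification, averaged 3.85 ± 0.821 and 0.284 ± 0.160 RPKM. Mboat4, which acylates ghrelin, averaged 5.09 ± 0.593 and 0.247 ± 0.177 RPKM. The other three, P4ha3 (a collagen prolyl hydroxylase subunit), Clca3a1 (a regulator of chloride channels) and Tchh (trichohyalin of the hair follicle), lay between 2.45 and 4.57 RPKM on CAST and between 0.220 and 0.407 RPKM on S129.

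The immune genes were led by Oas1a, an enzyme that senses double-stranded RNA and makes the oligoadenylates that switch on RNase L. Oas1a (ENSMUSG00000052776, chr5:120896256-120907521, minus strand) had 26.4, 28.5, 27.7 and 26.2 RPKM on CAST and 2.08, 1.86, 2.10 and 2.26 RPKM on S129, a log2 ratio of 3.65 ± 0.16. Its relative Oas1d, on the opposite strand 7014 bp away, had 3.52, 3.74, 3.94 and 2.49 RPKM on CAST and 0.120, 0.116, 0 and 0.199 RPKM on S129. Fcgr3, a low-affinity receptor for the Fc part of IgG, had 15.9, 16.96, 16.7 and 16.96 RPKM on CAST and 1.07, 0.660, 0.722 and 0.930 RPKM on S129. The chemokine Ccl9 stood out by its S129 allele, which was at or near 0 in every library: 0, 0.0259, 0.135 and 0 RPKM, against 13.4, 13.6, 12.7 and 14.6 RPKM on CAST. Its S129 share was 0.296%, from 12 S129 and 3770 CAST reads. The C-type lectins Clec4a1 and Clec4g averaged 5.51 ± 0.479 and 3.67 ± 0.318 RPKM on CAST (SD, n = 4), with S129 shares of 2.53% and 4.64%. Epx, the peroxidase of eosinophils, and Tnfrsf26, a receptor of the tumor necrosis factor family, averaged 4.06 ± 0.414 and 3.40 ± 0.486 RPKM on CAST, and their shares of 9.89% and 9.43% lay close to the limit of the rule.

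Of the genes of membranes and neurons, Sytl3, a synaptotagmin-like protein of vesicle transport, was highest with 19.3, 19.3, 20.97 and 17.02 RPKM on CAST and 0.682, 0.682, 0.685 and 0.242 RPKM on S129. Guca1b, an activator of the photoreceptor guanylate cyclase, had 3.53, 3.85, 3.35 and 3.23 RPKM on CAST and 0.104, 0.0701, 0.0488 and 0 RPKM on S129. Khdrbs2, a splicing regulator of neurons, was the lowest CAST allele of the set with 2.06, 1.96, 1.86 and 2.62 RPKM, and its S129 allele gave 0.0152, 0.0171, 0 and 0.0252 RPKM, or 3 S129 and 441 CAST reads over all libraries. Kcnk12, a potassium channel subunit, and Iqca, a protein with an IQ motif, averaged 3.07 ± 0.419 and 2.94 ± 0.321 RPKM on CAST and 0.229 ± 0.0284 and 0.319 ± 0.161 RPKM on S129 (SD, n = 4).

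The second, the third and the fourth highest CAST levels of the set belonged to pseudogenes. Gng5-ps (chr16:22295027-22295231, plus strand), a processed copy of the G protein gamma subunit gene Gng5, had 259, 243, 234 and 349.9 RPKM on CAST and 14.1, 11.97, 12.7 and 13.5 RPKM on S129. Rps15a-ps4 (chr4:132219988-132220489, minus strand), a copy of the ribosomal protein gene Rps15a, had 253, 212, 210.2 and 302 RPKM on CAST and 1.68, 1.49, 1.14 and 1.47 RPKM on S129. Both CAST alleles were highest in replicate 4. Gm1943 (chr8:109340691-109340864, minus strand), a copy of part of Wdr70, had 105, 86.6, 88.8 and 88.0 RPKM on CAST and 4.79, 4.25, 2.11 and 5.61 RPKM on S129. In all, 5 of the 43 genes (11.6%) were annotated as pseudogenes, against 0.555% of the other expressed autosomal genes, and 6 (14.0%) had a single exon, against 2.04%. The remaining predicted genes were Gm10874, Gm6803, Gm2022, 1700015F17Rik and A530064D06Rik, and the remaining pseudogenes Gm12504 and BC021767. The lincRNA Gm10874 had the most one-sided ratio of all, with 25.3, 29.5, 28.0 and 25.9 RPKM on CAST and 0.0295, 0.0165, 0.0692 and 0 RPKM on S129, or 7 S129 and 5948 CAST reads. Gm10874 shares 1092 exon bases, 46.4% of its exons, with the pseudogene Got2-ps1 on the opposite strand. Since the use of strand in counting is not given, reads of these bases cannot be told apart. A530064D06Rik, at a lower level, had 3.85, 3.19, 2.94 and 2.58 RPKM on CAST and S129 reads in 1 library only, a share of 0.325%. Gm6803 and Gm2022, 2 single-exon genes of chromosome 12, averaged 9.83 ± 1.71 and 2.26 ± 1.02 RPKM on CAST (SD, n = 4), Gm12504 5.92 ± 0.861, BC021767 5.78 ± 1.98 and 1700015F17Rik 4.93 ± 1.02 RPKM. Their S129 means were 0.506 ± 0.384, 0.147 ± 0.171, 0.0923 ± 0.0451, 0.539 ± 0.491 and 0.305 ± 0.245 RPKM in the same order.

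Because reads from near-identical copies could be split or moved between them by the counting, the transcript of each expressed gene was compared with the transcripts of all other genes. A gene was taken to have a similar transcript where at least 150 bases, and at least 50% of the shorter transcript, aligned at 95% identity or more to a protein-coding gene or pseudogene elsewhere. This held for 16 of the 43 genes (37.2%), against 997 of 11568 other expressed genes (8.62%), and the values of these 16 are uncertain for this reason. The reference sequences below (GENCODE M21 transcripts on mm10, 5′ to 3′) show how close the copies are. They are those of the reference strain and do not show the S129 or CAST letters. Capitals mark the bases at which both sequences of a pair differ.

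The whole of Gng5-ps, 205 bases, differs from the aligned coding bases of Gng5 (spliced, within chr3:146499940-146503383) at 3 positions.
Gng5-ps: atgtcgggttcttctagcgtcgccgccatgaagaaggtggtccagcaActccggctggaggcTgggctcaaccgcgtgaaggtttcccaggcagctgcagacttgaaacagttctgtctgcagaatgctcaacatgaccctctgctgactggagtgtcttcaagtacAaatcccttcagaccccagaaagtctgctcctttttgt
Gng5: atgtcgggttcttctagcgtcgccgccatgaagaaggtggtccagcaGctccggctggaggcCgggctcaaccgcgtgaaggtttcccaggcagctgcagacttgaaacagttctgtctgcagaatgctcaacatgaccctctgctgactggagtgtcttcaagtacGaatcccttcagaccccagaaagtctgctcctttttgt

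Of Rps15a-ps4, the 150 bases with the most differences from Rps15a are shown (chr4:132220053-132220202, minus strand, against coding bases within chr7:118109108-118109996), with 5 of the 9 mismatches of the whole 390-base alignment.
Rps15a-ps4: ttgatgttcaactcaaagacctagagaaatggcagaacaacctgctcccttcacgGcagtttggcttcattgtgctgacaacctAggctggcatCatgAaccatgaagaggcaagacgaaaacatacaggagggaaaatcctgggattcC
Rps15a: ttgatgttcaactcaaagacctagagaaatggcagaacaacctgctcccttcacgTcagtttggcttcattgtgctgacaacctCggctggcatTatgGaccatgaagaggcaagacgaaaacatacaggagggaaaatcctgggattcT

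Gm1943 is identical over its 174 bases to coding bases of Wdr70 within chr15:8093677-8099143, so a single sequence stands for both.
Gm1943: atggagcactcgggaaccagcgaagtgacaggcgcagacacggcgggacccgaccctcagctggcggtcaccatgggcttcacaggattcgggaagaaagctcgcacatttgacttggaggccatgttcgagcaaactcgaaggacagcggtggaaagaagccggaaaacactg

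Gm6803 and Gm2022 are both members and differ from each other at 7 of 435 bases. The 150-base stretch shown was chosen for its many differences and holds 4 (chr12:88018482-88018631, minus strand, and chr12:87895510-87895659, plus strand).
Gm6803: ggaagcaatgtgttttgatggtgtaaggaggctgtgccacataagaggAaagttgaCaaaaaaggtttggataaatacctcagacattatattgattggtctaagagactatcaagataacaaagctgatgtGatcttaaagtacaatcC
Gm2022: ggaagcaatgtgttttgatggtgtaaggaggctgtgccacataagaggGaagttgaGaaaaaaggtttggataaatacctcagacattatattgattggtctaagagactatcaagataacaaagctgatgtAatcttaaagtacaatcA

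Oas1a and its neighbour Oas1g are 97.6% identical over 1861 bases, with 43 mismatches. The stretch of 150 coding bases shown was chosen for its many differences and holds 15 (chr5:120902013-120905703 and chr5:120882028-120885880, spliced, minus strand).
Oas1a: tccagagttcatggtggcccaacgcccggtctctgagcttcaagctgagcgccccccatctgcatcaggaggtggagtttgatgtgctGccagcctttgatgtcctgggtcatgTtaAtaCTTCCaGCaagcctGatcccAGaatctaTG
Oas1g: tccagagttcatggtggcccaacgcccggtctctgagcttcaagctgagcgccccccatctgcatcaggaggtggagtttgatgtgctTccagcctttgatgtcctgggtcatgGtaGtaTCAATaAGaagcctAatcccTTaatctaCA

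For 10 of the 16 the most similar gene was itself expressed at 2 RPKM or more, and of these only Gm2022 was also CAST-only. Rps15a, at 677 and 614 RPKM on S129 and CAST, had a share of 52.4%, where its pseudogene had 0.588%. Wdr70 had 61.0 and 66.1 RPKM on S129 and CAST and a share of 48.0%, and Gng5, on chromosome 3, had 244 and 961 RPKM and a share of 20.2%. Got2, the mitochondrial aspartate aminotransferase that Gm10874 resembles on the opposite strand at 98.8% identity over 1637 bases, had 172 and 106 RPKM and a share of 61.9%. Tuba3a, at 96.5% identity to Tuba3b, had 55.8 and 50.6 RPKM and a share of 52.4%. Oas1g, Bglap3, Ptma (resembled by Gm12504) and Cgn (resembled by BC021767) had S129 shares of 34.7%, 35.5%, 34.2% and 28.0%, all below 50% but above the limit of the rule. The other 6 genes with a similar transcript were Mrps36, Sytl3, Clca3a1, Oas1d, Lysmd1 and Gm2022. For each of these the most similar gene was expressed below 2 RPKM or had no value here. For Gm2022 that gene was Gm2016, at 0 RPKM. Gm2022 also resembles the member Gm6803, which summed to 10.3 RPKM over both alleles. Mrps36 was 99.3% identical to Mrps36-ps1 over 306 bases, and Lysmd1 100% identical to Gm9726 over 678 bases. The 27 members without a similar transcript, Ube2s, Apoa2, Creb3 and Serpina3m among them, were all protein-coding, with a median CAST level of 5.51 RPKM and a median S129 share of 5.76%.

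**Figure D2:**
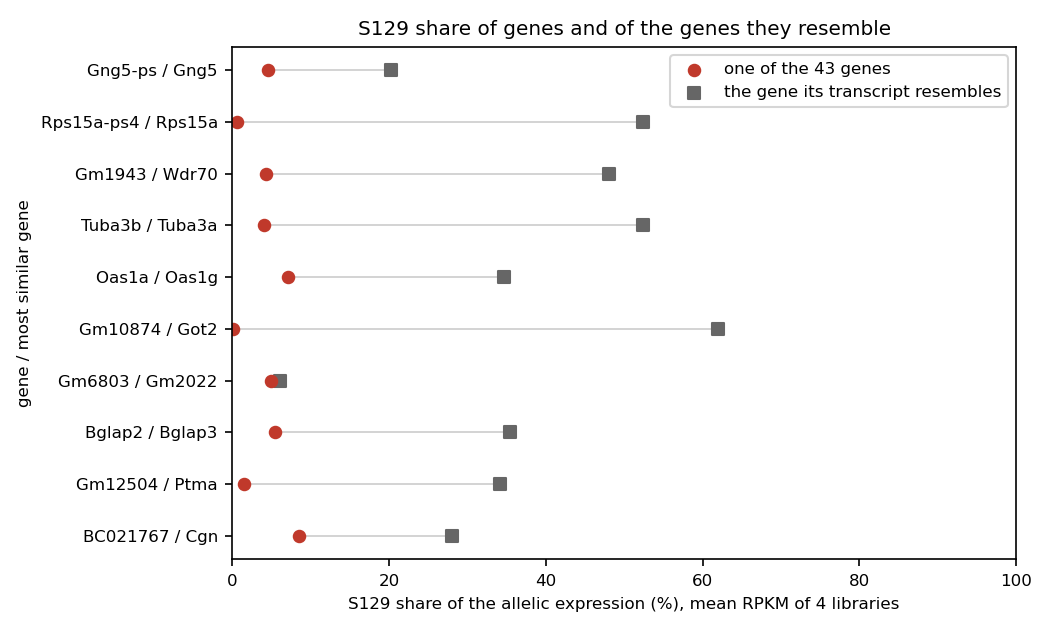
S129 share in percent, from the mean RPKM of 4 libraries, for the 10 genes whose most similar gene was expressed at 2 RPKM or more (red circles) and for that gene (grey squares). In 9 of 10 pairs the similar gene lay above 20%, up to 61.9% for Got2; only Gm2022, a member itself, lay at 6.12%.

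The depth behind the S129 values differed widely between the genes. Whole reads recovered from the RPKM values gave 2 to 6944 S129 reads per gene over the 4 libraries (median 53) and 97 to 70916 CAST reads (median 1008). For 20 genes the S129 allele rested on fewer than 50 recovered reads. For A530064D06Rik, Kcnk12, Pxt1 and Sytl3 no annotated length gave whole reads, and the smallest length that did was taken. Their reads are therefore the fewest possible, and their intervals below may be too wide. The exact (Clopper-Pearson) 95% interval of the S129 share in reads, which covers counting error only, reached above 10% for 11 genes and stayed at or below it for 32. It was 0.0473 to 0.242% for Gm10874, 0.164 to 0.554% for Ccl9, 1.12 to 1.98% for Apoa2 and 8.72 to 9.12% for Ube2s. For Gm2022, with 7 S129 and 97 CAST reads, it was 2.75 to 13.4%.

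The X chromosome gives a measure of reads assigned to an allele that this male line lacks. Over 388 X genes the CAST share had a median of 0.0631% and a 95th percentile of 0.472%. Gm10874 (0.106%), Ccl9 (0.296%) and A530064D06Rik (0.325%) had S129 shares at or below that 95th percentile, and no gene was at or below the median. The S129 shares of the other 40 genes lay above that percentile. The X genes measure S129 reads taken for CAST. How often CAST reads were taken for S129 cannot be measured on them, because this line has no CAST X. Reads of similar transcripts or of feeder cells were not separated either. Of the 43 genes, 8 had an S129 share of at most 2% and 23 of at most 5%.

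**Figure D3:**
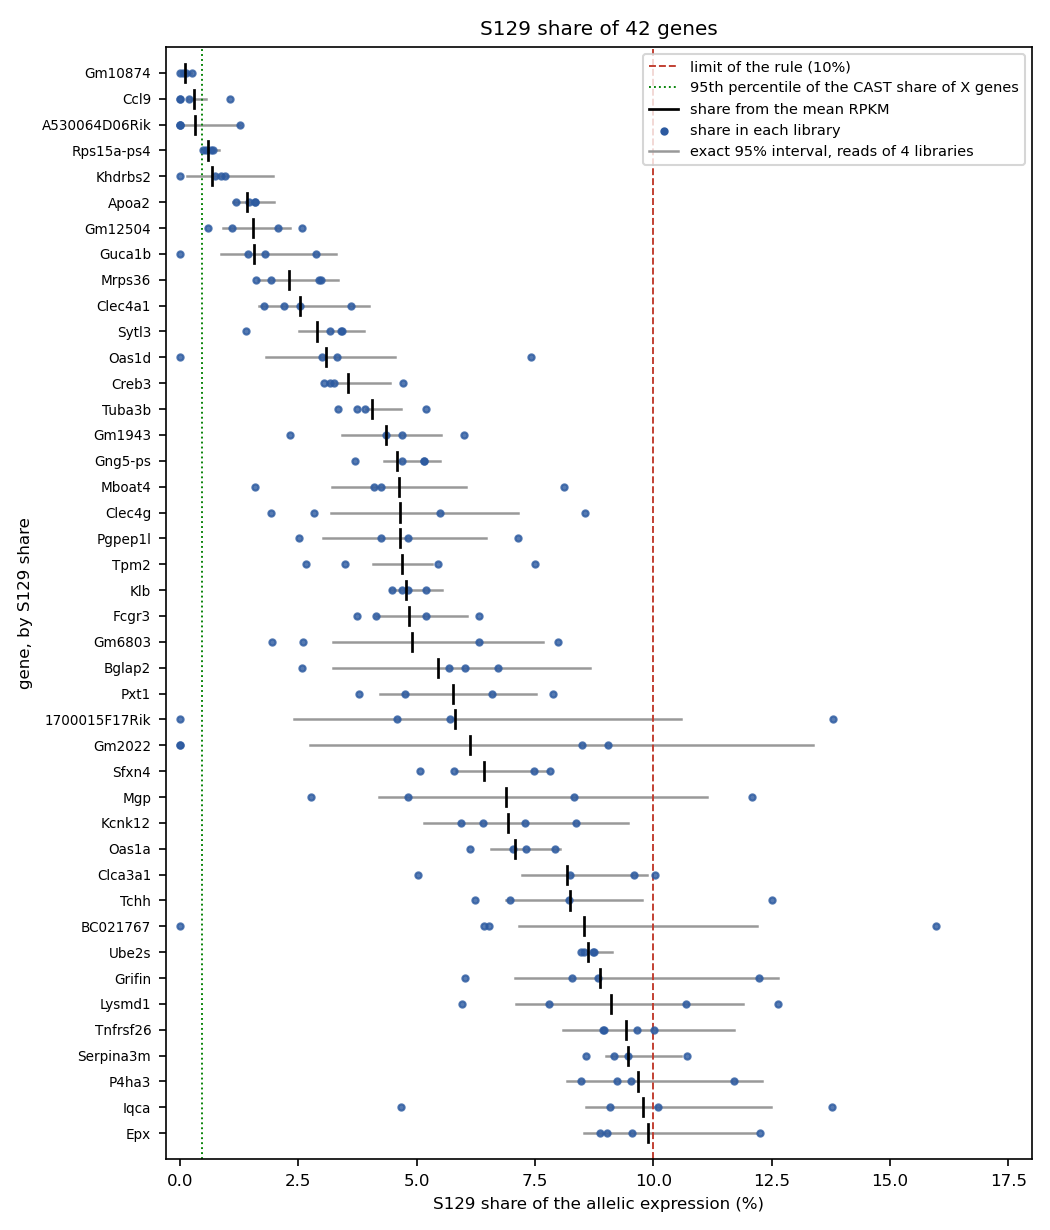
S129 share in percent of 42 of the 43 genes, with points for the 4 libraries, a black bar for the share of the mean RPKM and a grey line for the exact 95% interval of the reads summed over libraries. The dashed line is the limit of the rule at 10% and the dotted line the 95th percentile of the CAST share of X genes at 0.472%; 3 genes lie at or left of the dotted line.

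The set has no gap at its limit. The members nearest to 10% were Epx (9.89%), Iqca (9.78%), P4ha3 (9.67%), Serpina3m (9.47%) and Tnfrsf26 (9.43%). The nearest genes outside were Gm6639 (10.1%), Peg3 (10.1%), Steap4 (10.2%), Col6a5 (10.5%) and 2310001K24Rik (10.5%). Shares of these edge genes differed between libraries by more than their distance from the limit, with 8.88, 12.3, 9.02 and 9.56% for Epx inside and 5.84, 7.97, 10.8 and 15.97% for Steap4 outside. In single libraries 38 to 41 of the 43 genes had a share of at most 10%, and 31 did in every library. Applied to 1 library at a time, the rule was met by 46 to 58 genes, most often in replicate 4, the library with the fewest reads.

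Genes beside the members were examined for the same bias. For each member the nearest expressed gene on either side that is no member was taken, which gave 81 genes. Their median S129 share was 46.6 ± 0.76% (SD, n = 4 libraries), against 49.5 ± 0.13% for the 11099 other expressed autosomal genes. The difference of -2.98 ± 0.86 percentage points (SD, n = 4) was negative in 4 of 4 libraries, and the exact two-sided sign-flip test over the libraries gave p = 0.125, the smallest value that 4 libraries allow. The SD and the test cover only how the same genes repeat between libraries. Neither covers the variation from gene to gene. Without chromosomes 3, 6, 8 and 16, whose median shares of 37.4%, 53.4%, 45.7% and 61.8% depart most from 50%, the difference was -0.78 ± 1.35 percentage points for 57 neighbours (exact p = 0.375). Some neighbours share sequence with a member. Tln1, Gba2, Rpl28 and Ezr overlap exons of a member on the opposite strand, and Oas1g, Bglap3 and Cgn have transcripts similar to one. The part of shared reads in the difference was not tested. For the 27 members without a similar transcript, an alternative added later, the difference was -3.01 ± 1.01 percentage points for 53 neighbours. The neighbours spread more widely than other genes: 55.6% of them had a share between 40 and 60%, against 75.8%. This spread was not tested, and it was not computed without chromosomes 3, 6, 8 and 16.

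**Figure D4:**
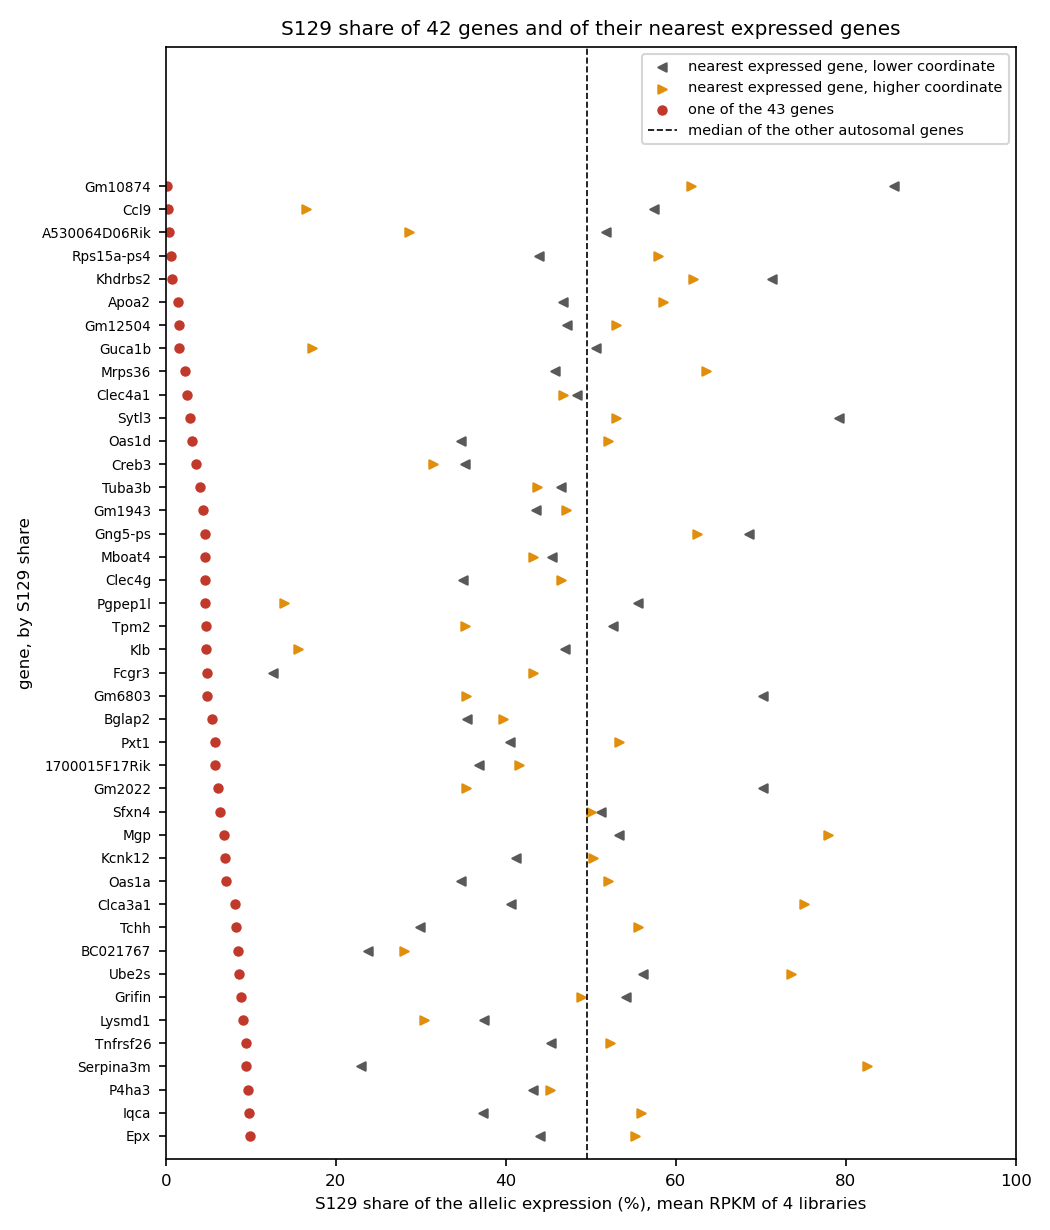
S129 share in percent, from the mean RPKM of 4 libraries, of 42 of the 43 genes (red circles) and of the nearest expressed genes on the lower (grey) and higher (orange) coordinate side; the dashed line is the median of other autosomal genes at 49.5%. Neighbours lie on both sides of the line, and 5 lie below 20%.

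In all, 5 of the 81 neighbours (6.17%) had an S129 share below 20%, against 98 of 11099 other genes (0.883%), a difference that was not tested. Each of the 5 lay beside a different member, and 3 were from the same gene family as that member. Fcgr2b, the inhibitory IgG receptor 74626 bp from Fcgr3, had 13.4, 11.1, 13.8 and 11.99% in the 4 libraries. Guca1a, 1590 bp from Guca1b, had 12.5, 13.3, 23.7 and 18.7%. Ccl6, 9245 bp from Ccl9, had 7.61, 13.2, 13.5 and 46.1%, and without replicate 4, far from the others, its share was 11.6%. The other pairs join unlike genes. Rpl9, a protein of the large ribosomal subunit 4356 bp from Klb, stood at 1221 ± 224 and 6645 ± 999 RPKM on S129 and CAST (SD, n = 4), a share of 15.5%. Fam169b, 9605 bp from Pgpep1l, had a share of 13.9%. Other members had balanced or S129-biased neighbours. Ube2s lies between Rpl28 (56.1%) and Isoc2b (73.6%), Apoa2 between Tomm40l (46.7%) and Fcer1g (58.5%), and Serpina3m between its relatives Serpina3i (23.0%) and Serpina3n, which at 81.4, 77.4, 84.8 and 86.8% was biased to S129 in every library.

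In all, 4 pairs of members lay within 200 kb of each other. Oas1a and Oas1d were 7014 bp apart with no other expressed gene between them, Gm2022 and Gm6803 122532 bp apart, Tpm2 and Creb3 38566 bp apart, and Fcgr3 and Apoa2 160118 bp apart. Between Tpm2 and Creb3 lies Tln1, the talin gene, with a share of 35.2% that was 34.2, 35.9, 35.3 and 35.5% in the 4 libraries. Creb3 shares 360 exon bases with Tln1 on the opposite strand, 15.2% of its exons. Between Fcgr3 and Apoa2 lie Cfap126, Sdhc and Tomm40l, with S129 shares of 43.2%, 51.2% and 46.7%. Exons of 12 members (27.9%) overlapped those of another gene, against 36.3% of other expressed genes. The largest overlaps were those of Gm10874 with Got2-ps1 (46.4% of its exons) and of Pxt1 with Gm16191 (22.5%), both on the opposite strand.

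The members lay on 13 of 19 autosomes. Chromosome 5 held 6 members among 777 expressed genes (0.772%), and chromosomes 3, 17 and 1 held 5 each (0.917%, 0.865% and 0.765%), against 0.37% over all chromosomes. Chromosomes 2, 9, 10, 14, 15 and 18 held none, with 289 (chromosome 18) to 878 (chromosome 2) expressed genes each. Counts this small were not tested and single out no chromosome. Chromosome 3 had a median S129 share of 37.4% over its other genes, and its 5 members (Bglap2, BC021767, Clca3a1, Tchh and Lysmd1) had shares of 5.45%, 8.53%, 8.17%, 8.24% and 9.11%.

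No gene of the imprinted lists was among the 43. Of the genes listed as paternally expressed, 31 were expressed at 2 RPKM or more, with S129 shares of 10.1 to 73.3% and a median of 46.5%. Such genes would come from CAST only where the imprint applies in these cells. The list was not limited to genes imprinted in embryonic stem cells, and imprinting itself was not tested. Peg3, a zinc finger gene of the imprinted domain on chromosome 7, came closest with 10.3, 9.70, 9.79 and 10.8% in the 4 libraries, just outside the rule. Usp29 and Peg13 followed at 16.2% and 17.5%, and Snhg14, the long transcript of the Snrpn domain, was at 23.6%. Genes of the list nearer to balance included Igf2 at 52.8%, Kcnq1ot1 at 49.2%, Impact at 50.2% and Mest at 42.4%. Ndn (32.0%), Peg12 (34.9%) and Dlk1 (38.5%) leaned to CAST. Sfmbt2 (73.3%), Rtl1 (68.5%) and Platr20 (66.2%) leaned to S129. Of 27 expressed genes listed as maternally expressed none was a member, and their shares were 37.1 to 87.8%.

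By symbol, 7 members (16.3%) were predicted genes, against 4.69% of all expressed genes. Both the C-type lectins Clec4a1 and Clec4g came from only 4 expressed genes with symbols starting with Klr or Clec. Oas1a and Oas1d came from 52 expressed genes with symbols starting with Gbp, Ifi, Oas, Slfn or Trim. Over all genes that could meet the rule, 0.37% were members. The other families searched held 1 member or none. Among those with none were 342 expressed zinc finger, 200 solute carrier, 18 glutathione S-transferase and 10 MHC genes. These counts are descriptions of a set chosen on the same values.

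Between libraries, the median CAST level was 6.89 ± 0.19 RPKM and the median S129 share 4.94 ± 0.30% (SD, n = 4). The SD of the log2 CAST level between libraries had a median of 0.17, against 0.14 for other expressed autosomal genes. Without replicate 4, the library with the fewest reads, these medians were 0.11 and 0.11. The steadiest of the high members were Fcgr3 (0.04) and Oas1a (0.06). The least steady were Gm2022 (0.74), BC021767 (0.60), Bglap2 (0.35), Mgp (0.30) and 1700015F17Rik (0.30), with 97, 507, 292, 222 and 137 CAST reads over the 4 libraries. Gm2022 had 3.22, 2.90, 1.95 and 0.963 RPKM on CAST and 0.320, 0.269, 0 and 0 RPKM on S129, and BC021767 had 6.27, 7.41, 6.55 and 2.91 and 1.19, 0.517, 0.450 and 0 RPKM, both lowest on CAST in replicate 4. Of the members 34.9% summed to less than 5 RPKM over both alleles, against 16.9% of other expressed autosomal genes.

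On the opposite side of the scale, 60 of 11223 expressed autosomal genes (0.535%) had an S129 share of at least 90%. Of these, 66.7% were protein-coding against 86.0% of the CAST-only genes, 6.67% were pseudogenes against 11.6%, and 21.7% had a similar transcript elsewhere against 37.2%. The median sum of both alleles was 7.82 RPKM for them and 7.34 RPKM for the CAST-only genes. These shares describe 2 small sets and were not tested against each other.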

How the data were processed

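Expression of both alleles was measured by stranded, polyA-enriched RNAseq (2 × 150 bp) in 4 libraries of untreated F123-ESCs, which form 1 group. The authors filtered ribosomal RNA, trimmed reads with Trimmomatic 0.40, aligned them to an N-masked mm10 genome with STAR, split them by strain with SNPsplit and deposited RPKM per gene, allele and library. The program that counted reads, the gene annotation and the use of strand are not given in the sources used here. Deposited averages and their log10 values were not used, and 0 columns belonged to other samples. That the libraries are separate cultures is not stated, so their spread may be technical.

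Genes were placed by identifier on GENCODE M21 (mm10). Whole reads were recovered from the steps of the RPKM values, per allele and library: 20151 of 20243 genes above 0 (99.5%) came out whole within 0.02 reads. The RPKM of each allele is relative to that allele's own total. This step was checked on simulated data. The recovered totals of both alleles were 34120404 to 56627957 reads per library. The exact intervals cover counting error alone, because amplified reads lacking molecular barcodes can stem from the same molecule. Logarithms used RPKM + 0.1, which understates the ratio of low values. Similar transcripts were found with BLAST 2.17.0; other steps used Python 3.11.15, pandas 2.3.3 and SciPy 1.17.1.

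No group comparison exists, so the only test was the exact two-sided sign-flip over libraries for the neighbours. The genes, the lists of imprinted genes, families and markers, the rules and the alternatives were chosen with earlier results of these data known. Genes named are the 20 highest on CAST, the 5 nearest either side of the limit, those within 200 kb of another, and the 5 with the largest spread between libraries. Only some expressed genes of the paternal list are named. These and the other members, neighbours and similar genes named were chosen after their values were seen. Values of 1 member, which is among the 20 highest, are not reported here and it is left out of the plots, but it stays in all counts and medians. Alternatives changed the limits, the averaging, the scaling, the pseudocount, the genes compared and the libraries.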

Additional observations from a re-analysis of the deposited data

Results flagged for a closer look

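In each set of 4 libraries, a value was singled out where its gap to the nearest other library as a part of the whole range exceeded Dixon's 95% critical value for 4 samples, which chance does in about 1 of 20 sets. Of 91 sets, the CAST and S129 levels of the 43 genes and 5 summaries, 7 met it, where chance alone would give 4.55. The CAST level of Gm1943 was 105 RPKM in replicate 1, against 86.6 to 88.8 RPKM in the others, and that of Creb3 was 56.5 RPKM in replicate 2, against 49.9 to 50.4 RPKM. The CAST level of P4ha3 was low in replicate 1, at 3.22 RPKM against 3.70 to 3.73 RPKM, and that of Tnfrsf26 low in replicate 4, at 2.68 RPKM against 3.61 to 3.70 RPKM. On S129, Sytl3 was at 0.242 RPKM in replicate 4 against 0.682 to 0.685 RPKM, Grifin at 1.13 RPKM in replicate 1 against 0.562 to 0.636 RPKM, and A530064D06Rik at 0.0410 RPKM in replicate 2 against 0 RPKM in the others.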

How the results depend on the processing

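Of 79 values recomputed under alternatives, 57 stayed, 22 moved and 0 reversed. A value stayed if it was within 1.5 times the main count, or within 1 SD or the same direction for other values. Only the neighbours' difference could be scored as reversed. Leaving out members on the imprinted lists could not change that difference, because no member is on them. The number of CAST-only genes, 43, was 23 at a limit of 5% (29 on the opposite side, where it was 60), 147 at 20% (172 opposite) and 19 with at least 10 RPKM (27 opposite); with at least 1 RPKM the opposite side had 98. The median of libraries, the rule in every library, rescaled S129 values and kept small RNAs gave 44, 29 (which also asks for 2 RPKM in each library), 38 and 46 genes, and shares from reads, an alternative added after seeing the data, 41. Leaving out 1 library gave 44 to 46 genes, of which 40 to 43 were among the 43, and 60 to 63 opposite. Imprinted genes among them numbered 3 at 20% and 0 to 1 without 1 library (1, Peg3, without replicate 4); genes at 0 on S129 in all libraries numbered 2 with at least 1 RPKM, 1 with small RNAs kept and 0 to 2 without 1 library. The median CAST level of 6.89 RPKM was 3.96 with at least 1 RPKM, 27.5 with at least 10 RPKM, 6.12 for protein-coding genes, 5.76 for genes without a similar transcript (added later) and 6.82 to 6.98 without 1 library. The median log2 spread of 0.17 was 0.21 with at least 1 RPKM, 0.13 with at least 10 RPKM, 0.13 for genes without a similar transcript (added later) and 0.11 to 0.17 without 1 library, lowest without replicate 4. The cause of these shifts was not tested beyond the change in the genes taken. The neighbours' share of 46.6% lay between 46.3 and 48.9% under all alternatives, below that of other genes in each. With 98% identity or 300 bases, both added later, 11 and 13 genes had a similar transcript. No paired analysis was possible because the samples form 1 group, with no other group to pair by replicate number; both alleles were compared within each library.

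Depth limits the S129 values: 20 of 43 genes rest on fewer than 50 recovered S129 reads, and for 11 the interval reaches past the limit. With 4 libraries the sign-flip test cannot go below 0.125. Reads without a strain difference are not in the values, and neither the number of strain differences per gene nor their mapping was analysed here. Copies of a gene that the reference lacks were not analysed here.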

Other observations

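The 3 left-out small RNA symbols Rnu3a, Mir5106 and Mir7065 otherwise met the rule. Rnu3a, a gene of U3 small nucleolar RNA, had a mean CAST level of 58968 RPKM and a mean S129 level of 1574 RPKM, an S129 share of 2.6%, and its CAST values of 88526, 41940, 63288 and 42118 RPKM in replicates 1 to 4 differed by more than 2 times. Mir5106 was at 0 on S129 in all libraries and at 1.48 to 3.28 RPKM on CAST, and Mir7065 was above 0 on S129 in 1 library only.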
